A study of Mus musculus with 9 samples.

Results

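A set of 10 genes that carry, report or restrain signalling from fibroblast growth factor (FGF) receptors through the kinase ERK were followed across 9 arrays of mouse embryonic stem cells (ESCs). They were chosen by gene symbol in the annotation of the array platform and are the receptors Fgfr1 and Fgfr2, the phosphatases Dusp4 and Dusp6, the inhibitors Spry2, Spry4 and Spred1, and the transcription factors Etv4, Etv5 and Egr1. All 10 were measured among the 22180 genes tested, each by its brightest probe set (a group of probes for 1 transcript). Their mean level lay above the median of all genes in each case.

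The cells were a Nanog-GFP reporter line (NG4, strain 129/Sv), kept on gelatin with LIF, a cytokine that holds such cells undifferentiated. All groups had received a pLKO.1-based lentivirus and were selected with 2 μg/mL puromycin for 72 h. In the group shControl the virus expressed a control hairpin, in shPhf5a one directed at Phf5a and in shPaf1 one directed at Paf1. Each group had 3 arrays. Phf5a is a subunit of the SF3b splicing complex, and Paf1 belongs to the Paf1 complex, a companion of RNA polymerase II during elongation. The labels give 1 line and no second hairpin per target, so that an off-target effect of a hairpin and the effect of its target cannot be told apart.

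In ESCs, FGF4 made by the cells themselves acts on FGFR1 and FGFR2, which switch on RAS, RAF, MEK and ERK in turn. Active ERK raises transcription of Egr1, of the ETS-family factors Etv4 and Etv5, and of its own brakes. Dusp4 and Dusp6 encode phosphatases that inactivate ERK, while Sprouty and Spred proteins act higher up, between the receptor and RAF. The pathway is best known in ESCs for moving cells out of naive pluripotency and, in the early embryo, for the choice of primitive endoderm.

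Ahead of the results, the arrays themselves were compared. Expression of Phf5a was 34.4%, 55.9% and 39.6% of the control mean in shPhf5a replicates 1, 2 and 3, and that of Paf1 was between 37.7% and 38.9% in the shPaf1 arrays. Each target was also called lower in the other knockdown, Phf5a at 62.0% to 76.2% in shPaf1 and Paf1 at 76.5% to 95.7% in shPhf5a. The standard deviation of the difference between 2 arrays of a group, over all genes, was 0.12 to 0.13 log2 units in shControl and in shPaf1 and 0.16 to 0.23 in shPhf5a, where replicate 2 stood apart. Of the 7 members with a lower mean in shPhf5a, replicate 2 was the array nearest the control mean in all 7. Among all genes called lower there, it was the nearest in 80.4%. Differences of the members with a lower mean in shPhf5a are therefore also given without that array. Such values are larger by construction, because the array left out is the one nearest the control. Over all 18 alternative settings the weakest shPhf5a differences from the control of Dusp6, Spry4, Etv4 and Etv5 were -0.37, -0.59, -0.94 and -0.47 log2 units. Of 13 ESC identity genes 2 were higher and 8 lower in shPhf5a, and 1 was higher and 8 lower in shPaf1. Their summed level on a linear scale lay between 34489 and 35013 in the shControl arrays, 27309 and 31064 in shPhf5a, and 26126 and 26622 in shPaf1. The ESC markers Nanog, Sox2 and Utf1 had means of 12.50, 11.62 and 12.54 log2 units in shControl, 12.26, 11.74 and 12.06 in shPhf5a, and 11.67, 11.56 and 12.13 in shPaf1. All 9 of these means lay above the 6.70 that was the median level of all genes, while Dppa5a lay below it in every group (5.95 to 6.12). Among the markers called lower were Nanog (-0.25 in shPhf5a and -0.84 in shPaf1), Zfp42 (-0.51 and -0.82), Utf1 (-0.47 and -0.40) and Pou5f1 (-0.59 and -0.33). Those called higher were Sall4 in both knockdowns (0.49 and 0.34) and Tfcp2l1 in shPhf5a (0.45, and -0.14 in shPaf1, not called). Array number limits the precision of every value, and nothing in the labels says that replicates were separate cultures, so that a p-value here reflects only how far these samples scatter, which may be technical.

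The members answered the knockdowns in different patterns. In shPhf5a, 6 of the 10 were lower (Dusp6, Spry4, Spred1, Etv4, Etv5 and Egr1) and 3 were higher (Fgfr1, Fgfr2 and Dusp4), in limma's moderated test with Benjamini-Hochberg adjusted p under 0.05, which is what "called" means below. Spry2 was at -0.26 log2 units and did not pass. Over all genes 20.7% were called lower and 16.7% higher there, and among the genes above the median level, to which all members belong, 35.2% and 26.9%. In shPaf1, 6 of the 10 were higher (Fgfr1, Fgfr2, Dusp4, Dusp6, Spry2 and Egr1) and 0 were lower in limma's test, 1 of them (Spred1) being lower at an unadjusted p under 0.05. The share of all genes called was 18.0% higher and 17.8% lower, and among genes above the median level 29.2% and 30.7%. In either direction 9 members were called in shPhf5a, against 37.4% of all genes and 62.1% of those above the median level. In shPaf1 6 were, against 35.8% and 59.9%, so that the number of members called in shPaf1 was near the share among genes of like level.

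Compared directly, 7 members were lower in shPhf5a than in shPaf1, 1 (Fgfr2) was higher, and Fgfr1 and Spred1 did not differ beyond the spread. Over all genes, 29.0% were called in this comparison, 16.3% lower and 12.7% higher, and above the median level 48.1%, 27.4% and 20.7%. A difference of at least 2-fold was called for 3 members (Dusp4, Etv4 and Egr1) and for 1.61% of all genes. The arrays of the groups compared did not overlap for 9 members in shPhf5a against the control (45.8% of all genes, 70.2% above the median level). The same held for 8 members in shPaf1 (48.3% and 74.8%) and for 8 between the knockdowns (37.7% and 55.9%). The median difference of the members was -0.51 log2 units in shPhf5a and 0.34 in shPaf1, each against the control, and -0.72 between the knockdowns. Over all genes these medians were -0.03, -0.01 and -0.02.

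**Figure D1:**
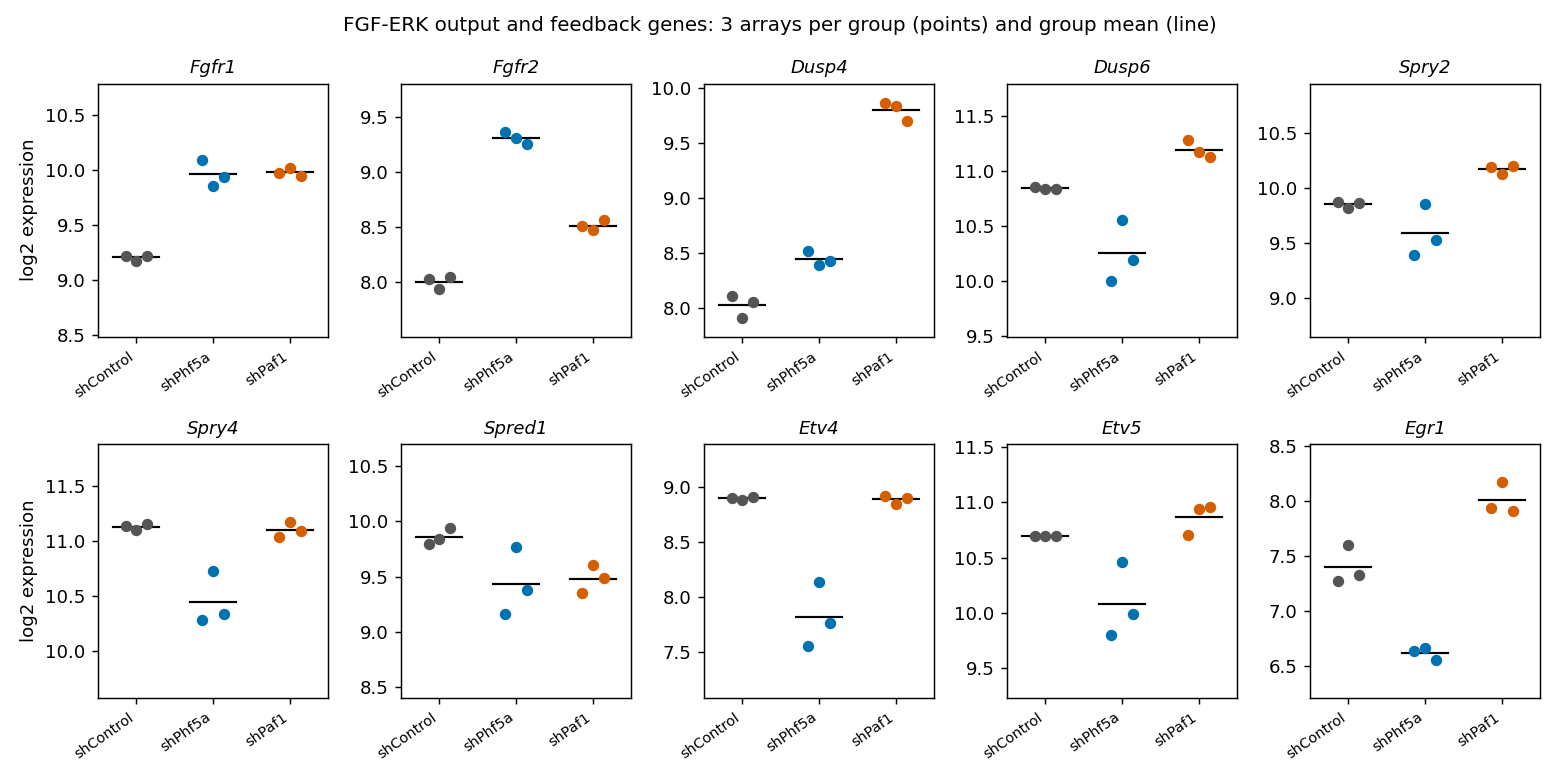
Expression of the 10 members (log2 units, vertical axes of equal length but different position) in each of 3 arrays per group, with the group mean as a line. Fgfr1 and Fgfr2 were above the control in both knockdowns, Dusp4 was highest in shPaf1, Etv4 and Egr1 were lowest in shPhf5a, and shPhf5a replicate 2 (middle blue point) was the nearest to the control for 7 of the 7 members with a lower mean.

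**Figure D2:**
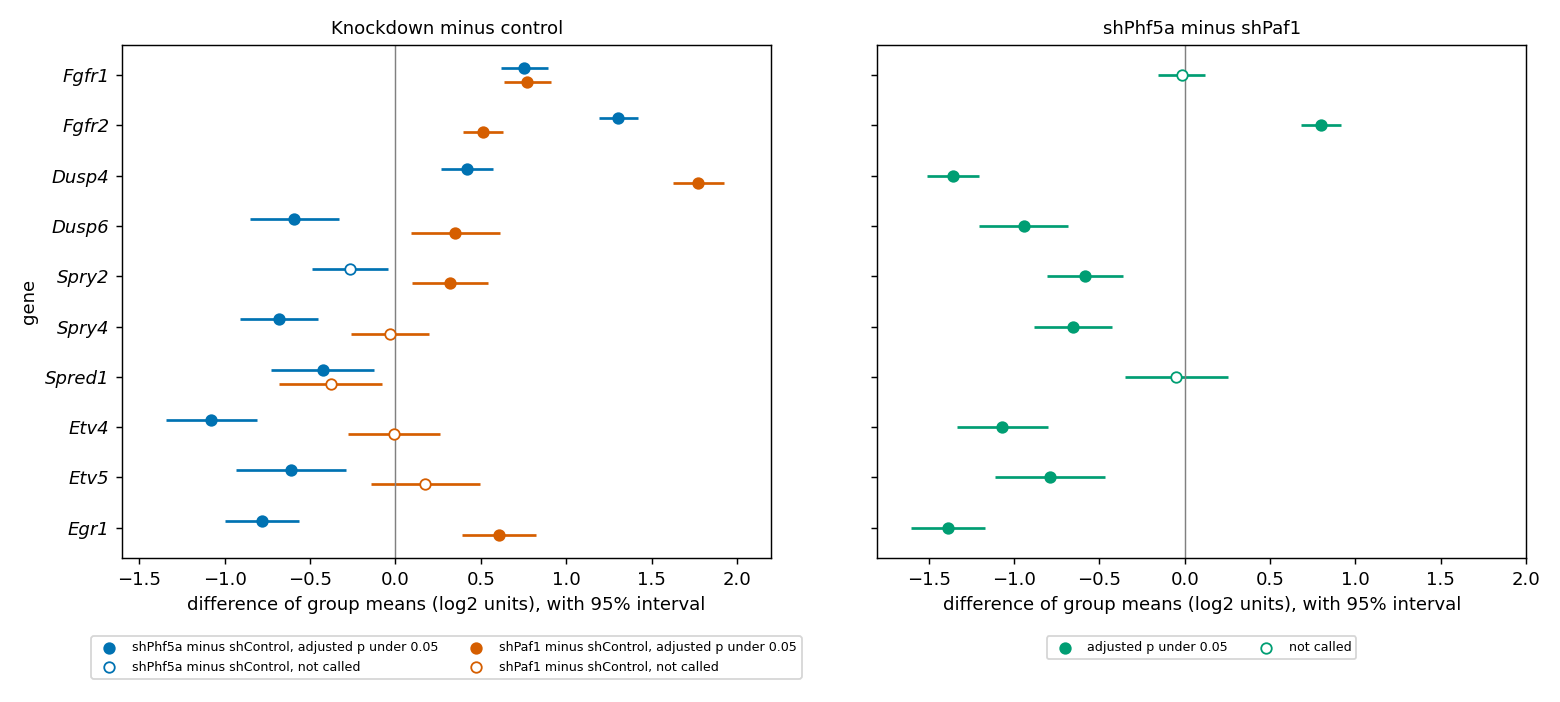
Differences of group means (log2 units) with 95% intervals of limma's test, for each knockdown against the shared control arrays (left) and between the knockdowns (right); filled points have an adjusted p under 0.05. Between the knockdowns 8 of 10 members were called, with Fgfr1 and Spred1 at -0.02 and -0.05 as the exceptions.

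Both receptor genes were higher in both knockdowns, and Fgfr2 more so after the hairpin against Phf5a. Fgfr1, the main FGF receptor of ESCs, was at 9.22, 9.17 and 9.22 log2 units in shControl, at 10.09, 9.85 and 9.93 in shPhf5a, and at 9.97, 10.02 and 9.94 in shPaf1. All 6 knockdown arrays lay above all 3 control arrays, and the arrays of the knockdowns overlapped. Fgfr1 rose by 0.76 (SE 0.06, 1.69-fold, limma adjusted p = 1.99e-05) in shPhf5a and by 0.77 (SE 0.06, 1.71-fold, adjusted p = 1.21e-05) in shPaf1. The difference between the knockdowns was -0.02 with a 95% interval from -0.16 to 0.12.

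Fgfr2, the receptor that is prominent in trophoblast and primitive endoderm, was at 8.02, 7.94 and 8.04 in shControl. It was at 9.36, 9.31 and 9.25 in shPhf5a and at 8.50, 8.47 and 8.56 in shPaf1, so that the 3 groups did not overlap. The rise was 1.31 (SE 0.05, 2.47-fold, limma adjusted p = 9.53e-07) in shPhf5a and 0.51 (SE 0.05, 1.42-fold, adjusted p = 4.83e-05) in shPaf1. Between the knockdowns Fgfr2 differed by 0.80 (SE 0.05, adjusted p = 7.79e-06). It was the only member that was higher in shPhf5a than in shPaf1 in this test.

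The phosphatases Dusp4 and Dusp6 parted from each other in shPhf5a. In shPaf1 Dusp4 rose, and the rise of Dusp6 was called in 7 of 18 alternative settings. Dusp4, a nuclear phosphatase, was at 8.11, 7.91 and 8.06 in shControl, 8.52, 8.40 and 8.43 in shPhf5a, and 9.87, 9.84 and 9.70 in shPaf1. The 3 groups did not overlap, and shPaf1 stood far above the others. Dusp4 rose by 0.42 in shPhf5a (SE 0.07, 1.34-fold, limma adjusted p = 0.000838) and by 1.78 in shPaf1 (SE 0.07, 3.42-fold, adjusted p = 2.69e-07). Between the knockdowns it differed by -1.35 (SE 0.07, adjusted p = 2.08e-06). The rise in shPaf1 was rank 104 of all 22180 genes by size, and it was the only change of a member by at least 2-fold in shPaf1, where 2.89% of all genes were called at that size. In shPhf5a 2 members (Fgfr2 and Etv4) were, against 3.29% of all genes.

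Dusp6, a cytoplasmic phosphatase with a strong preference for ERK and a common readout of the pathway, was at 10.86, 10.83 and 10.84 in shControl. It was at 10.0001, 10.56 and 10.19 in shPhf5a and at 11.28, 11.17 and 11.13 in shPaf1, with no overlap between any of the groups. The fall in shPhf5a was 0.59 (SE 0.12, to 66.4% of the control, limma adjusted p = 0.00276), and without replicate 2 the difference was -0.74 (adjusted p = 3.14e-05). The rise in shPaf1 was 0.35 (SE 0.12, 1.28-fold, adjusted p = 0.0407). Leaving out single arrays ended this call in 7 of 9 cases, with an adjusted p from 0.0558 to 0.134. Those were each array of shControl and of shPaf1, and the third array of shPhf5a. It also ended when arrays were centred on their medians (0.0681), when all probe sets were tested (0.0544) and with replicate number as a block (0.0501). Between the knockdowns Dusp6 differed by -0.94 (SE 0.12, adjusted p = 0.00027).

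Dusp6 and Etv5 each had 2 probe sets, and these did not behave alike. The dimmer probe set of Dusp6 ranged from 5.12 to 5.43 over all arrays, below the median level of all genes (6.70), where changes are compressed. It was lower in both knockdowns, at a difference of -0.15 (SE 0.05, limma adjusted p over all probe sets = 0.0423) in shPhf5a and -0.20 (SE 0.05, adjusted p = 0.00936) in shPaf1. Its reading, and the mean that includes it, thus carry less weight than the brighter probe set at a mean of 10.76. With the mean of the 2 probe sets Dusp6 was at -0.37 in shPhf5a, still called, and at 0.07 in shPaf1, not called (adjusted p = 0.502). For Etv5 the dimmer probe set was at 8.45, 8.51 and 8.50 in shControl, 8.06, 8.29 and 8.11 in shPhf5a, and 7.76, 7.51 and 7.77 in shPaf1. Its groups did not overlap, and the lowest values were those of shPaf1, whereas the brighter probe set was highest there. The dimmer one differed from the control by -0.80 in shPaf1 (SE 0.08, adjusted p over all probe sets = 0.000101) and by -0.33 in shPhf5a (SE 0.08, adjusted p = 0.0145). Which part of the transcript each probe set reads was not tested.

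**Figure D3:**
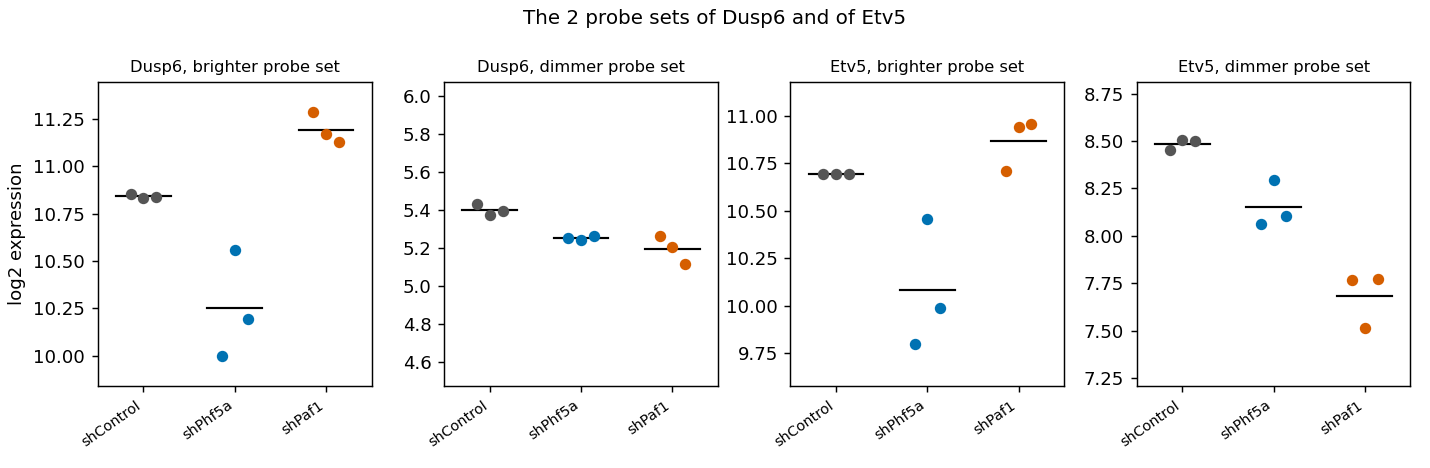
Expression (log2 units) of the brighter and dimmer probe sets of Dusp6 and Etv5 in 3 arrays per group, with group means as lines. In shPhf5a all 4 probe sets were below the control, while in shPaf1 the brighter ones lay above the control and the dimmer ones below it; the brighter one of Etv5 was not called there. The dimmer one of Dusp6 lay below the median level of all genes in every array, and the dimmer one of Etv5 above it.

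Because Etv5 has 2 listed start sites and both genes have 2 probe sets, the 250 bases before each start are shown, from RefSeq's annotation of GRCm38.p6, 5′ to 3′ on the strand of the gene. The capitals mark the CCAAT box (CCAAT, or ATTGG on the other strand), a common promoter element that was chosen for display after the letters had been seen.
Dusp6 (chr10:99262981-99263230, + strand): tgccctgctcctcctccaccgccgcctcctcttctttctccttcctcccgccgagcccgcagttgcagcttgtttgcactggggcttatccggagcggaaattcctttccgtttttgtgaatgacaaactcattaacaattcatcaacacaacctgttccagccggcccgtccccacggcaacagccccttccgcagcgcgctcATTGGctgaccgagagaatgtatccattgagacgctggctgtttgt
Etv5, upstream start (chr16:22439571-22439820, - strand): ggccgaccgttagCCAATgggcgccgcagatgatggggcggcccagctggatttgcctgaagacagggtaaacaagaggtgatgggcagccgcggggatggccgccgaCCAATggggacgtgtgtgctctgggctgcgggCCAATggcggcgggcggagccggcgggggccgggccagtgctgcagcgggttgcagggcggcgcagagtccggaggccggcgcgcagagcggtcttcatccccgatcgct
Etv5, downstream start (chr16:22438369-22438618, - strand): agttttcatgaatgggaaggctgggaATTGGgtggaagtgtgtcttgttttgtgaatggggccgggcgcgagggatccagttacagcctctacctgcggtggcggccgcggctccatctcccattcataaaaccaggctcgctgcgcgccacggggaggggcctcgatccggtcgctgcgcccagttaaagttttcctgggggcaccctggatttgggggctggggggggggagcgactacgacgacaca
The upstream Etv5 window holds 3 CCAAT boxes, the downstream one 1, and the Dusp6 window 1. Of 32851 such windows listed by RefSeq, 33.8% hold at least 1. RefSeq windows were searched for 5 of the 10 members, with 6 windows (Dusp6, Spry2, Spred1, Fgfr2 and both of Etv5). On either strand 0 of these 6 held the ETS site CCGGAA (12% of all windows), the cAMP response element core TGACGT (6.47%), the AP-1 site TGANTCA (6.75%) or the CArG box of serum response factor (1.47%). CCGGAA is a longer form of the ETS core GGAA. The core itself was not searched, and its letters occur in the Dusp6 window shown, so that the count does not mean that ETS cores are absent. The GC box GGGCGG was in 2 of the 6 (Spred1 and upstream Etv5) and in 32.7% of all windows. Any member window on 1 chromosome had been left out beforehand, although the shares of all windows include that chromosome. Dusp4, Spry4, Etv4, Egr1 and Fgfr1 were not searched, so that these counts do not speak for them. No motif overlapped another in the sequences shown.

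The Sprouty and Spred genes, whose products block activation of RAS and RAF, were mostly lower in shPhf5a. Spry4 was at 11.13, 11.10 and 11.16 in shControl, 10.28, 10.72 and 10.34 in shPhf5a, and 11.04, 11.17 and 11.09 in shPaf1. All shPhf5a arrays lay below both other groups, which overlapped. Spry4 fell by 0.68 in shPhf5a (SE 0.10, to 62.3% of the control, limma adjusted p = 0.000544). Without shPhf5a replicate 2 the difference was -0.82 (adjusted p = 4.52e-06). It was at -0.03 in shPaf1, with a 95% interval from -0.26 to 0.20, and the difference between the knockdowns was -0.65 (SE 0.10, adjusted p = 0.00103).

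Spry2 was at 9.88, 9.82 and 9.87 in shControl, 9.39, 9.85 and 9.52 in shPhf5a, and 10.19, 10.13 and 10.21 in shPaf1. In shPhf5a, replicate 2 lay among the control arrays while the others were lower, and the difference of -0.26 (SE 0.10) did not pass (limma adjusted p = 0.063). Leaving out that array gave -0.39, which passed (adjusted p = 0.000423), whereas leaving out replicate 1 gave -0.17 (adjusted p = 0.19) and replicate 3 gave -0.23 (adjusted p = 0.177). The members called in shPhf5a were accordingly 10 without replicate 2. They were 8 without replicate 1 or 3 or without any one control array. The rise of 0.32 in shPaf1 (SE 0.10, 1.25-fold, adjusted p = 0.0289) lost its call without any one of shControl replicates 1, 2 and 3 and shPaf1 replicates 1, 2 and 3 (adjusted p from 0.0566 to 0.0891), and when arrays were centred on their medians (0.0535). The members called higher in shPaf1 were 4 in each of these cases. Spry2 differed between the knockdowns by -0.59 (SE 0.10, adjusted p = 0.00161).

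Spred1 was at 9.80, 9.84 and 9.94 in shControl, 9.16, 9.77 and 9.38 in shPhf5a, and 9.35, 9.61 and 9.49 in shPaf1. The arrays of both knockdowns lay below the control arrays and overlapped each other. In shPhf5a Spred1 fell by 0.43 (SE 0.13, limma adjusted p = 0.031). That call was lost when any control array, or replicate 1 or 3 of shPhf5a, was omitted (adjusted p from 0.0587 to 0.0998), and without shPhf5a replicate 2 the difference was -0.59 (adjusted p = 0.000639). In shPaf1 the difference of -0.38 (SE 0.13) missed the threshold (adjusted p = 0.0532), and it was called in 8 of 18 alternative settings. These included the fits without shPhf5a replicate 1 (0.0193) or 2 (0.0048), which change only the estimate of the spread, and replicate number as a block (0.021). The others were quantile normalization, only genes above the median level, a trended and robust variance, array weights and only the 6 arrays compared. Between the knockdowns it was -0.05, with a 95% interval from -0.35 to 0.25.

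All of the transcription factor genes were lower in shPhf5a, and of these Egr1 alone was called in shPaf1, where it was higher. Etv4 was at 8.90, 8.88 and 8.91 in shControl, 7.55, 8.14 and 7.76 in shPhf5a, and 8.92, 8.84 and 8.89 in shPaf1. The shPhf5a arrays stood well below the others, which overlapped. Etv4 fell by 1.08 in shPhf5a (SE 0.12, to 47.4% of the control, limma adjusted p = 9.96e-05), the largest fall of a member there, and without replicate 2 the difference was -1.24 (adjusted p = 1.25e-06). It was at -0.01 in shPaf1 with a 95% interval from -0.28 to 0.26, and it differed between the knockdowns by -1.07 (SE 0.12, adjusted p = 0.000146).

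Etv5, the close relative of Etv4, was at 10.69 in all 3 shControl arrays, at 9.80, 10.46 and 9.99 in shPhf5a and at 10.71, 10.94 and 10.96 in shPaf1 by its brighter probe set. The 3 control values are equal to the last deposited digit, which occurred in shControl for 205 of 22180 genes. They add no scatter to the spread that the test pools over the groups. For Etv5 that spread, and with it the SE and p-values, is therefore smaller than the other groups alone would give. Etv5 fell by 0.61 in shPhf5a (SE 0.14, to 65.4% of the control, limma adjusted p = 0.00698), and without replicate 2 the difference was -0.80 (adjusted p = 6.49e-05). In shPaf1 it was at 0.18 (SE 0.14), which did not pass (adjusted p = 0.417), and with the mean of the 2 probe sets it was at -0.31 and called lower (adjusted p = 0.0323). Between the knockdowns Etv5 differed by -0.79 (SE 0.14, adjusted p = 0.00241) by the brighter probe set. The mean of both gave -0.16, which did not pass (adjusted p = 0.299), and the dimmer alone gave 0.47 (adjusted p over all probe sets = 0.0032).

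Egr1, an immediate early zinc finger gene that answers ERK within minutes, was at 7.27, 7.60 and 7.33 in shControl. Its arrays were at 6.64, 6.66 and 6.56 in shPhf5a and at 7.94, 8.17 and 7.91 in shPaf1. No groups overlapped, with shPhf5a below and shPaf1 above the control. Egr1 fell by 0.78 in shPhf5a (SE 0.10, to 58.2% of the control, limma adjusted p = 0.000185) and rose by 0.61 in shPaf1 (SE 0.10, 1.52-fold, adjusted p = 0.000762). The difference between the knockdowns, -1.39 (SE 0.10, adjusted p = 1.08e-05), was the largest of any member in that comparison and rank 100 of all genes by size. Both calls against the control held in all 18 alternative settings, and without shPhf5a replicate 2 the fall was at -0.80.

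The other genes of the pathway were read from 6 lists with 113 genes, of which 103 were analysed. Of these, 76 lay above the median level of all genes. In shPhf5a 24 were higher (23.3%) and 25 lower (24.3%), with a median difference of 0.02 log2 units, against 16.7% and 20.7% of all genes and 26.9% and 35.2% of those above the median level. In shPaf1 44 were higher (42.7%) and 14 lower (13.6%), with a median of 0.13, against 18.0% and 17.8% of all genes and 29.2% and 30.7% of those above the median level. Between the knockdowns 13 were higher in shPhf5a (12.6%) and 40 lower (38.8%), with a median of -0.13, against 12.7% and 16.3% of all genes and 20.7% and 27.4% of those above the median level. The shares in shPhf5a thus lay between those of all genes and of genes above the median level, and the same shares are the background for each list below. No call below was adjusted over a list, and every p is limma's, adjusted over all genes.

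Among 18 FGF ligand genes most were not called, with 1 higher and 4 lower in shPhf5a and 2 higher and 4 lower in shPaf1. The 4 lower in shPaf1 became 2 without shPaf1 replicate 1 or 3, and the 1 higher in shPhf5a became 0 without shControl replicate 2 or 3 or shPhf5a replicate 1. Fgf17 fell in both, by 1.62 (SE 0.13) and 1.34 (SE 0.13). Fgf15 fell by 1.17 in shPhf5a (SE 0.16, adjusted p = 0.000328) and was at -0.25 in shPaf1 (adjusted p = 0.297). Fgf4, the ligand that ESCs make, fell by 0.71 in shPaf1 (SE 0.08, adjusted p = 0.000102). In shPhf5a it was at -0.24 (SE 0.08, adjusted p = 0.0438), a call lost in 8 of the 9 fits without 1 array, the exception being the fit without shPhf5a replicate 2 (adjusted p from 0.00559 to 0.153 over all settings). Fgf5, a gene of the primed epiblast, rose by 0.45 in shPaf1 (SE 0.08) and was at 0.04 in shPhf5a. Fgf2 fell by 0.31 in shPhf5a (SE 0.05), and Fgf18 fell by 0.30 in shPaf1 (SE 0.08), not called without shControl replicate 1 or shPaf1 replicate 1 or 3 (adjusted p up to 0.0623).

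Of 13 other receptor and co-receptor genes, 6 were higher and 4 lower in shPhf5a, and 6 higher and 1 lower in shPaf1. Fgfbp1, a carrier that releases FGFs from the matrix, rose by 1.84 (SE 0.08) and 1.72 (SE 0.08), and the heparan sulfate proteoglycan gene Sdc4 by 1.59 (SE 0.05) and 1.07 (SE 0.05). Fgfrl1, a receptor without a kinase domain, fell by 0.25 in shPhf5a (SE 0.06) and rose by 0.68 in shPaf1 (SE 0.06). Gpc4, a glypican, rose by 0.42 (SE 0.09) in shPhf5a and the heparan sulfate sulfotransferase gene Hs2st1 fell by 0.45 (SE 0.13), a call lost without shControl replicate 1 or 2 or shPhf5a replicate 3 (adjusted p up to 0.0753). Its relative Hs6st1 rose by 0.50 in shPaf1 (SE 0.07) and by 0.29 in shPhf5a (SE 0.07). Of the co-receptor genes called lower, the single one in shPaf1 (Sdc1, named after its value was seen) was at -0.23 with adjusted p = 0.0485, and without any single array of shControl or shPaf1, or the third of shPhf5a, 0 were. The 4 lower in shPhf5a became 2 without shControl replicate 1 or 2 or shPhf5a replicate 3.

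Among 12 genes for adaptors and RAS activation, 4 were higher and 3 lower in shPhf5a, and 7 higher and 2 lower in shPaf1. The RAS exchange factor gene Sos2 rose by 0.96 (SE 0.09) and 0.80 (SE 0.09), and the phospholipase gene Plcg1 by 0.39 (SE 0.04) and 0.55 (SE 0.04). Ptpn11, whose product SHP2 links receptors to RAS, rose by 0.62 (SE 0.10) in shPaf1 and was at 0.05 in shPhf5a, and the difference between the knockdowns passed (-0.57, adjusted p = 0.00186). Sos1 likewise rose by 0.31 in shPaf1 (SE 0.06) and was at -0.11 in shPhf5a (difference -0.42, adjusted p = 0.000665). The adaptor gene Frs3 rose by 0.38 in shPhf5a (SE 0.06), and Nras fell by 0.36 in shPhf5a (SE 0.08) and by 0.31 in shPaf1 (SE 0.08). The 2 lower in shPaf1 became 1 without any single array of shControl or shPaf1, or without shPhf5a replicate 3.

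In the kinase cascade itself 0 of 12 genes were higher and 4 were lower in shPhf5a in limma's test, with the same counts at an unadjusted p under 0.05, and 5 were higher and 3 lower in shPaf1. The scaffold genes Lamtor3 and Lamtor2 fell by 0.75 (SE 0.06) and 0.51 (SE 0.12) in shPhf5a, and Lamtor3 fell by 0.31 (SE 0.06) in shPaf1. Map2k1, which encodes MEK1, fell by 0.51 (SE 0.08) in shPhf5a and was at -0.25 in shPaf1 (SE 0.08, adjusted p = 0.0413), where leaving out any array of shControl or shPaf1, or the third of shPhf5a, ended the call (adjusted p up to 0.139). Map2k2, which encodes MEK2, fell by 0.40 (SE 0.09) in shPhf5a. In shPaf1 Map2k2 rose by 0.31 (SE 0.09), a call lost without shControl replicate 1 or 2 or shPaf1 replicate 1 or 2 (adjusted p up to 0.0761). The largest change of the list was that of Mknk2, a kinase downstream of ERK, which rose by 1.50 in shPaf1 (SE 0.06) and was at 0.02 in shPhf5a (difference -1.48, adjusted p = 9.03e-07). Mapkapk2 rose by 0.66 (SE 0.14) and the ribosomal S6 kinase gene Rps6ka3 by 0.32 (SE 0.07) in shPaf1. Lamtor2 was at -0.37 there, called lower but not without shControl replicate 2 or 3 or shPaf1 replicate 1 or 2 (adjusted p up to 0.126), and without these the 3 lower genes became as few as 1.

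Of 26 further genes listed as brakes of the pathway, 8 were higher and 4 lower in shPhf5a and 14 higher and 2 lower in shPaf1. The list is broad, and not every gene in it is an established brake of ERK. Flrt1, Flrt2, Flrt3 and Dusp10 are examples, and the 14 include Flrt3 (0.29, adjusted p = 0.00799) and Dusp10. These counts are therefore not counts of ERK brakes alone. Dusp5, a nuclear ERK phosphatase, rose by 1.42 in shPaf1 (SE 0.08) and was at 0.04 in shPhf5a (difference -1.37, adjusted p = 5.66e-06). Errfi1, an inhibitor of EGF receptors, rose by 0.96 (SE 0.05) in shPaf1 and by 0.55 (SE 0.05) in shPhf5a, and Dusp10 rose by 0.87 (SE 0.10) in shPaf1 and was at 0.39 (SE 0.10) in shPhf5a, called but not without shControl replicate 3 (adjusted p = 0.0523). Dusp9, a phosphatase abundant in ESCs, rose by 0.36 in shPhf5a (SE 0.09) and fell by 0.36 in shPaf1 (SE 0.09). Spred3, a relative of Spred1, fell by 0.44 in shPhf5a (SE 0.11) and rose by 0.60 in shPaf1 (SE 0.11). In shPhf5a the largest rises were those of the phosphatase gene Dusp1 (0.78, SE 0.11), of Nf1 (0.74, SE 0.08) and of Dab2ip (0.56, SE 0.08; 0.27 in shPaf1, adjusted p = 0.022, up to 0.0868 without replicate 1 or 2 of shControl or 2 or 3 of shPaf1), the last pair encoding proteins that switch RAS off. Pebp1, an inhibitor of RAF, fell by 0.59 in shPhf5a (SE 0.10) and by 0.46 in shPaf1 (SE 0.10). The 4 lower in shPhf5a became 2 without shControl replicate 1 or 2.

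Of 22 other ERK-responsive genes, 5 were higher and 6 lower in shPhf5a, and 10 higher and 2 lower in shPaf1. In shPhf5a the largest changes were falls of Ier2 by 1.01 (SE 0.15), of Etv1, the third factor of the Etv4 and Etv5 subfamily, by 0.89 (SE 0.10), of Myc by 0.85 (SE 0.14) and of the cyclin gene Ccnd1 by 0.74 (SE 0.12). In shPaf1 the urokinase receptor gene Plaur rose by 1.02 (SE 0.10; 0.41 in shPhf5a, also called), Fosb by 0.59 (SE 0.10) and Srf by 0.54 (SE 0.09), while Ccnd1 fell by 0.67 (SE 0.12). Etv1 rose by 0.42 in shPaf1 (SE 0.10), and Myc and Ier2 were at 0.03 and -0.25 there without passing. The list therefore held genes that moved either way in each knockdown.

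**Figure D4:**
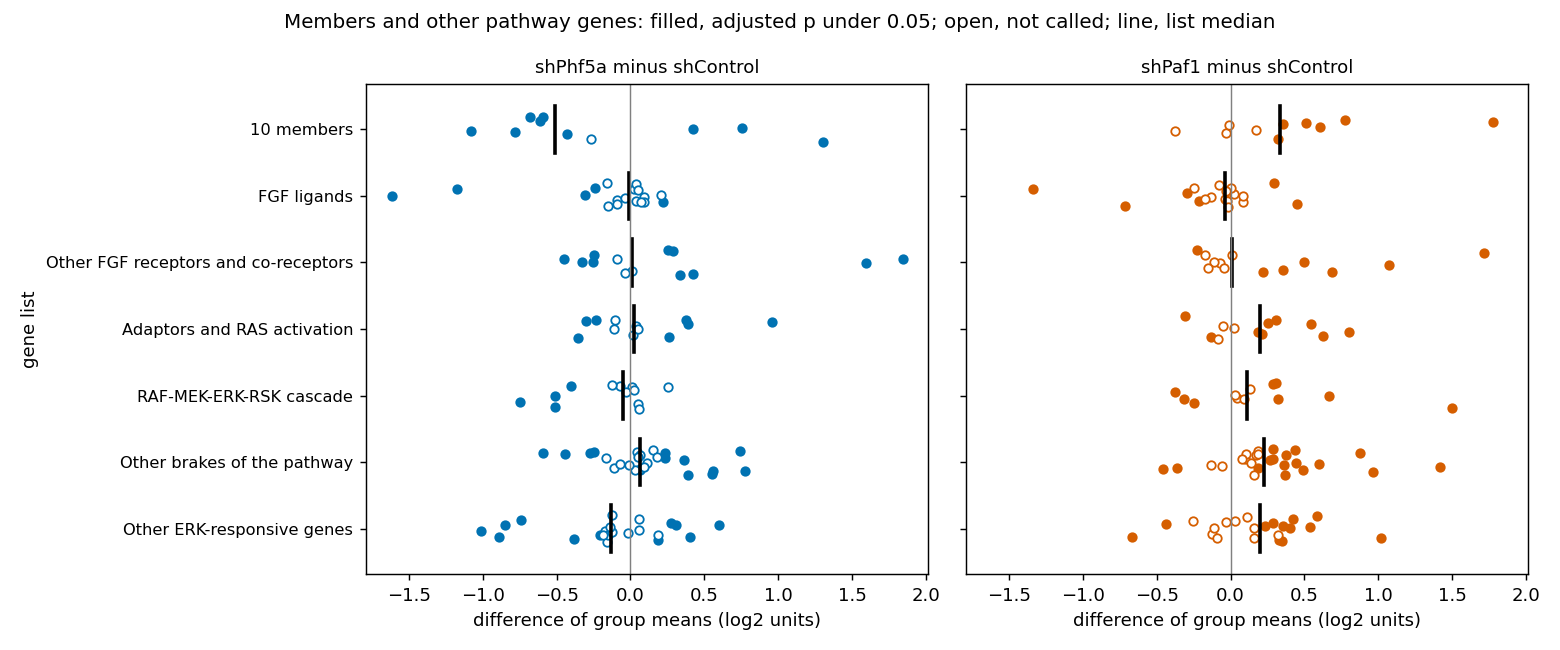
Difference from shControl (log2 units) of the 10 members and of each gene in 6 lists of other pathway genes, for shPhf5a (left) and shPaf1 (right), with the median of each list as a black line and filled points for an adjusted p under 0.05. Both panels share the same control arrays; the members' medians lay at -0.51 and 0.34, and in the cascade 0 genes were higher in shPhf5a and 5 in shPaf1.

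Genes with the pattern most like a member were sought for the 3 members with the widest range of group means, by the root mean square distance over the 9 arrays after each gene was centred on its control mean, among 10427 genes. For Dusp4 these were Ecm1 (distance 0.07 log2 units), Sema6a (0.11) and Gpr50 (0.11). Ecm1, a gene for a secreted matrix protein, was at 0.45 in shPhf5a and 1.82 in shPaf1, against the 0.42 and 1.78 of Dusp4. For Egr1 they were Ppp1r18 (0.11), Renbp (0.13) and Ucma (0.13), and for Fgfr2 they were Galnt6 (0.08), Ppp2r2c (0.09) and Slc5a8 (0.09). Among the members themselves, each by its brightest probe set, the closest pair was Spry4 and Etv5 (distance 0.14). Dusp6 and Etv5 followed (0.15), and Fgfr1 and Fgfr2 were 0.36 apart. The dimmer probe set of Etv5, at -0.33 in shPhf5a and -0.80 in shPaf1, was not part of these distances.

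Markers of other cell types were read in the same way, and whether they moved together with the members was not tested. For their counts too, the background was 16.7% of all genes higher and 20.7% lower in shPhf5a, and 18.0% and 17.8% in shPaf1. Of 13 trophoblast markers 11 were higher and 0 lower in shPhf5a in limma's test (0 lower also at an unadjusted p under 0.05), and 8 were higher and 1 lower in shPaf1. Their summed linear level lay between 1965 and 2027 in shControl, 5367 and 8342 in shPhf5a, and 6841 and 8656 in shPaf1. Gata2 and Krt18 rose by 2.84 (SE 0.14) and 2.49 (SE 0.19) in shPhf5a and by 1.50 (SE 0.14) and 3.21 (SE 0.19) in shPaf1, and Hand1 by 1.87 (SE 0.18) and 1.78 (SE 0.18). Of the early regulators, Cdx2 was at 0.44 in shPhf5a (adjusted p = 0.025) and 0.36 in shPaf1 (not called, 0.0608), and Eomes at 0.28 (0.0496) and 0.36 (0.0147). The calls of Cdx2 in shPhf5a and of Eomes in both were lost without shControl replicate 1 or 3, and without further arrays (adjusted p up to 0.0935 for Cdx2, and 0.173 and 0.059 for Eomes). Tfap2c rose by 0.87 in shPhf5a (SE 0.04) and fell by 0.30 in shPaf1 (SE 0.04). The markers not called in shPhf5a were Elf5 and Psg17, with control means of 5.29 and 4.73, and neither was called in shPaf1. Of 13 primitive endoderm markers 6 were higher and 1 lower in shPhf5a, and 6 higher and 0 lower in shPaf1 (2 lower at an unadjusted p under 0.05). Their summed level was 2104 to 2228 in shControl, 2672 to 3486 in shPhf5a and 2839 to 2869 in shPaf1. Gata6 rose by 1.78 (SE 0.20) and 1.03 (SE 0.20), and Sox17, Foxa2 and Hnf4a were not called in either knockdown.

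Fibroblast markers were higher in 2 of 15 and lower in 0 in shPhf5a (1 lower at an unadjusted p under 0.05), and higher in 5 and lower in 0 in shPaf1 (0 lower also at an unadjusted p under 0.05). Their summed level rose from 8167 to 8290 in shControl to 9607 to 9967 in shPhf5a and 12105 to 12757 in shPaf1. In shPaf1 the 5 higher were Fn1 (0.76, SE 0.04), Vim (0.57, SE 0.05), Dcn (0.57, SE 0.06), Col5a1 (0.54, SE 0.08) and Col1a1 (0.22, SE 0.07), and in shPhf5a the 2 were Vim (0.37, SE 0.05) and Col5a1 (0.26, SE 0.08). The call of Col1a1 in shPaf1 was lost without any one control array or shPaf1 replicate 1 or 2 (adjusted p up to 0.136 over all settings), and that of Col5a1 in shPhf5a without shControl replicate 1 or 3 or shPhf5a replicate 1. Fn1 and Vim, which ESCs also express, had control means of 11.44 and 12.13, and Dcn, Col5a1 and Col1a1 had 5.30, 7.17 and 6.93. Most of the summed fibroblast level thus came from Fn1 and Vim. Lum, Postn and Fap lay between 4.82 and 4.92 in shControl and were not called. Of 8 macrophage and blood markers 0 were higher and 2 lower in shPhf5a (the same counts at an unadjusted p under 0.05), and 1 was higher and 1 lower in shPaf1. Their summed level was 1633 to 1692, 1245 to 1359 and 1792 to 2118. Most of it came from Cd68, with means of 10.13 in shControl, 9.71 in shPhf5a and 10.57 in shPaf1. Ptprc, Adgre1, Lyz2 and Cd14 had control means of 5.04, 5.48, 5.51 and 5.24 and were not called in either knockdown. The part of these cell types in the levels of Fgfr1, Fgfr2 and Dusp4 was not tested, and in bulk RNA fewer cells of a type and less RNA per cell cannot be told apart.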

How the data were processed

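Total RNA of 9 samples (125 ng each) had been labelled with whole-transcript kits and hybridised to Affymetrix arrays, per the labels' protocols. The values are log2 expression values as the authors deposited them, 1 per probe set and array, for 33793 probe sets. Which software, background correction and normalization made them is not given in the sources used here. The log2 scale was inferred from the range (4.35 to 13.7) and the nearly equal array medians (6.22 to 6.31). Changes of dim genes are compressed on such arrays. Scan dates and scanner output were not analysed here, and batches were therefore not examined.

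Groups and replicate numbers came from the titles. Probe sets with 1 gene symbol (23521) were kept and updated through gene IDs (23328 matched in RefSeq), and those with several (1814) or not listed (8458) were left out. The brightest probe set stood for each of 22180 genes. limma 3.58.1 in R 4.3.3 was fitted to all 9 arrays (lmFit and eBayes, 1 mean per group), with Benjamini-Hochberg adjustment over all genes at 0.05. On simulated data for shPhf5a against shControl with 22180 genes, 200 were changed, all sizes together. The test recovered 76.1% of changes of 0.5 log2 units, 98.5% of those of 1 and 100% of those of 2. It made 7 calls among 21980 unchanged genes. Far fewer genes changed there than the 8306 called in shPhf5a, so that these rates do not carry over to the data.

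The members and lists were chosen with earlier results of these data known. Besides the members, Phf5a and Paf1, up to 4 called genes with the largest change were eligible per list and knockdown, and for the 3 members with the widest range of group means the 3 genes nearest in pattern whose mean exceeded the median of all genes, leaving out predicted loci, small RNAs and olfactory or vomeronasal receptors. Marker, ligand and further names beyond this rule were chosen after their values were seen. Alternatives were quantile normalization, centring, genes above the median level only (6.70), the mean over a gene's probe sets, all probe sets, array weights, robust trended variances, the 6 arrays compared alone, a replicate block, and leaving out each array.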

Additional observations from a re-analysis of the deposited data

Results flagged for a closer look

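Among the members and the 103 other pathway genes analysed, 9 were called in opposite directions by the hairpins. The direct test of shPhf5a against shPaf1 passed for each. For genes picked this way the direct difference joins both changes, so that its passing was built in and is no separate support. The share of all genes called in opposite directions was not counted. Dusp6 (-0.59 log2 units in shPhf5a and 0.35 in shPaf1) differed between the knockdowns by -0.94 (SE 0.12, limma adjusted p = 0.00027), by its brighter probe set. Egr1 (-0.78 and 0.61) differed by -1.39 (SE 0.10, adjusted p = 1.08e-05). The kinase-less receptor gene Fgfrl1 (-0.25 and 0.68) differed by -0.94 (SE 0.06, adjusted p = 6.92e-06). Map2k2 (-0.40 and 0.31) differed by -0.71 (SE 0.09, adjusted p = 0.000247). Spred3 (-0.44 and 0.60) differed by -1.04 (SE 0.11, adjusted p = 0.000109). Etv1 (-0.89 and 0.42) differed by -1.31 (SE 0.10, adjusted p = 2.08e-05). Cblb (-0.27 and 0.44) differed by -0.72 (SE 0.09, adjusted p = 0.000383), and Arc (-0.20 and 0.29) by -0.49 (SE 0.06, adjusted p = 0.000386). These 8 were lower in shPhf5a and higher in shPaf1. Dusp9 (0.36 and -0.36) ran the other way and differed by 0.73 (SE 0.09, adjusted p = 0.000307). The calls against the control were lost in at least 1 setting for Dusp6 and Map2k2 in shPaf1 and for Cblb and Arc in shPhf5a (adjusted p up to 0.161 and 0.109 for these last). Both differences from the control share the same 3 control arrays. Groups of 3 arrays are too small for a test of single outlying samples.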

How the results depend on the processing

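Each result was recomputed under 18 alternatives, 9 of them leaving out 1 array. Of 30 member results (10 genes in 3 comparisons) 23 kept their direction and side of the threshold throughout, and 7 did not. The 1 reversal among them was Etv5 in shPaf1, at -0.31 with the mean over its probe sets, a call made by its dimmer probe set. The count of members called lower in shPaf1 moved from 0 to 1 after quantile normalization, with only genes above the median level, with the mean over probe sets, with a trended and robust variance, with array weights, with only the 6 arrays compared and with the replicate block, and was 0 to 1 when arrays were left out. Same-numbered arrays of different groups had correlations of their deviations from -0.06 to 0.11, of which 1 of 9 exceeded 0.1, so the numbers were not taken to pair samples, and not every array correlated best with its own number. With the replicate block 8210, 7858 and 6255 genes were called in shPhf5a, shPaf1 and between them, against 8306, 7930 and 6430, and 9, 6 and 8 members; in shPaf1 the block ended the call of Dusp6 (adjusted p = 0.0501) and made that of Spred1 (0.021), and it changed no other call of a member. Among 120 results for 40 named pathway genes, 13 of 90 calls were lost in at least 1 setting and 0 reversed. Among 29 of the further pathway and marker genes named (87 results), 11 of 49 calls were lost in at least 1 setting, and 1 reversed, Vim between the knockdowns, at 0.10 with the mean over its probe sets (-0.20 otherwise). Signal over background was not used here, and it limits what dim probe sets can show.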
